A study of Mus musculus with 44 samples.

Results

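The report covers 10 genes that present peptides on MHC class I, read in cultured mouse CD4 T cells that differ in their microRNA-150 (miR-150) genotype. The genes were chosen by name: H2-K1 and H2-D1 encode the classical heavy chains, B2m the light chain beta-2-microglobulin, Tap1 and Tap2 the peptide transporter, Tapbp the loading chaperone tapasin, Psmb8, Psmb9 and Psmb10 the catalytic subunits of the immunoproteasome, and Nlrc5 the transactivator of class I genes. All 10 symbols occurred once among the 55416 genes of the count table, and all 10 were among the 21873 genes with enough counts to be tested.

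Class I molecules show fragments of a cell's own proteins to CD8 T cells. Proteasomes cut the proteins, TAP carries the peptides into the endoplasmic reticulum, and tapasin holds an empty heavy chain and its light chain at the transporter until a peptide binds. Interferons raise the whole pathway, in part through IRF1, and NLRC5 acts with RFX, CREB-family and NF-Y factors on a conserved promoter module; lymphocytes also carry a high level of class I at rest.

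Naive CD4 T cells sorted from spleens of C57BL/6NTac mice were grown for 3 days, at 150000 cells per well, on plate-bound anti-CD3 with soluble anti-CD28. Th0 cultures received these antibodies alone, Th1 cultures received IL-12 and anti-IL-4 as well, and Treg cultures received TGF-b1 and anti-IFN-g. The mice were miR-150 wild type (WT), miR-150 knockout (KO) or miR-150 knock-in (KI); the sources used here do not give how either allele was built, the age of the mice or their number. With 5 libraries of poly(A) RNA per group and 4 in Th0 KI, which lacks number 2, the 9 groups gave 44 libraries. The labels number the libraries 1 to 5 without saying that a number is a mouse, so p-values measure the spread between these libraries, which may be technical in part.

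Libraries held between 60815821 and 137415965 counts. Mir150, the targeted hairpin gene, received 6 counts over 15 WT libraries, 0 over 15 KO libraries and 7 over 14 KI libraries, with at most 2 in a library, so poly(A) reads did not check the genotype labels. The CD4 T cell markers were present in every library (9 of 9, summed level 1752 to 3514 counts per 1000000 counts, CPM). Cd8a, which a CD4 sort should leave low, reached 443 CPM in Treg WT 4, 318 CPM in Treg KI 3 and 73.1 CPM in Treg KO 2, the highest of their genotypes in that culture; the same numbers were also highest for WT and KI in Th0 and Th1. Those 3 Treg libraries had the lowest Foxp3 of their groups, at 47.7, 62 and 77.4 CPM, where 11 of the other Treg libraries had 376 CPM or more and Treg WT 3 had 159 CPM. Transcripts of both sexes were found in Treg WT 4 (Xist 77.2 CPM, Ddx3y 65.2 CPM) and, at a lower level, in Th1 KO 3. B cell markers (10 of 10 detected in every library) summed to between 56.9 and 2101 CPM and were highest in Th0 KI 3. In bulk RNA, fewer cells of a type and less RNA per cell cannot be told apart.

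Of the 10 genes, 7 lie in the MHC region of chromosome 17 in the GRCm38 assembly (GENCODE M21 coordinates). Psmb9, Tap1, Psmb8 and Tap2 follow each other within 34335 bases (34181987 to 34216321), Tapbp lies at 33915899 to 33929292, H2-K1 at 33996017 to 34000347 and H2-D1 at 35262730 to 35267499. B2m is on chromosome 2 (122147686 to 122153083), and Psmb10 (105935735 to 105938444) and Nlrc5 (94434356 to 94527272) are on chromosome 8. Tap1 overlaps Psmb9 on the opposite strand, and Tapbp, Tap2, Psmb8, B2m, Psmb10 and Nlrc5 also overlap other annotated genes. Zbtb22 (33915904 to 33919325) overlaps Tapbp on the same strand, as Mir7072 does Nlrc5, so strand alone does not separate their reads. The library kit keeps strand, but the sources used here do not say whether the counting used it. H2-K1 and H2-D1 share much of their sequence with each other and with other class I genes, so how reads were divided among them is uncertain.

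RefSeq (GRCm38.p6) gave a promoter for 8 of the 10 genes, as the 250 bases before the start site. The window held a TGACG followed 20 bases later by ATTGG, the cores of the X2 and Y boxes that CREB-family and NF-Y factors bind, in H2-K1, H2-D1 and B2m and in none of the other 5. Such a pair, with 15 to 25 bases between the cores, occurred in 0.381% of the 32851 RefSeq promoter windows. The same 3 windows were also the only ones of the 8 with a match to AANNGAAA, a core of interferon regulatory factor sites found in 21.3% of all windows on either strand, and with an NF-kB site (7.25% of all windows). In the 3 windows these matches overlapped neither each other nor the X2 and Y cores, and in H2-K1 and H2-D1 there were 2 NF-kB matches that overlapped each other. Either core alone is common, with TGACG in 17.8% and ATTGG in 33.9% of windows. The motifs were chosen with the windows in view, and a match is a description of letters, not of binding.

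The stretches below show that shared layout, 5′ to 3′ on each gene's strand, with the AANNGAAA match on either strand, the TGACG core and the ATTGG core in capitals. B2m lies at chr2:122147540-122147648 on the plus strand, H2-K1 at chr17:34000349-34000447 on the minus strand and H2-D1 at chr17:35262934-35263032 on the plus strand.
B2m: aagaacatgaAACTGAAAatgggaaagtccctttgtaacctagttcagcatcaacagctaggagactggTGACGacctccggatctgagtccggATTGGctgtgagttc
H2-K1: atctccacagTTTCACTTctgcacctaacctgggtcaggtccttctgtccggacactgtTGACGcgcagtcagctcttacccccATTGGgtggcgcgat
H2-D1: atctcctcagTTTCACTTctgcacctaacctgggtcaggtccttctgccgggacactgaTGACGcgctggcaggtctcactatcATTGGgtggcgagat
The H2-K1 and H2-D1 stretches were identical at 87 of 99 positions. All 3 genes carry the cores at the same distance from each other.

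Psmb9 and Tap1 are read in opposite directions from start sites at 34187330 and 34187556 of chromosome 17. The 225 bases between them, shown because a single stretch serves both genes, are printed on the strand of Tap1 (chr17:34187331-34187555, plus strand) with TGACG and the reverse complement of ATTGG in capitals.
Psmb9-Tap1: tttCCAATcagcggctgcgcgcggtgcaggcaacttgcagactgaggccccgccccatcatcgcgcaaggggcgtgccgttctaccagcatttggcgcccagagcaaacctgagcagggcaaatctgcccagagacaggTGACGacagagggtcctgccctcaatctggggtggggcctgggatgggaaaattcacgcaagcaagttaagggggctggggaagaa
Here the cores are far apart, and AANNGAAA was not found in the promoter window of either gene.

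Per kilobase of transcript, B2m was the most abundant of the 10, at a mean of 1211 CPM per kb over the 44 libraries, followed by H2-K1 at 531 and H2-D1 at 352 CPM per kb. Psmb8 had 159, Tap1 102.3, Psmb9 93.1 and Tapbp 68.9 CPM per kb. Nlrc5, Tap2 and Psmb10 were lowest, at 43.6, 40.3 and 37.5 CPM per kb. The heavy and light chains were thus read at several times the level of the transporter and the loading chaperone in these cultures.

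Treg KO had the highest of the 9 group means for 7 genes: H2-D1, Tap1, Tap2, Tapbp, Psmb8, Psmb9 and Psmb10. Th0 KI had the highest mean for H2-K1 and B2m, and Th1 KI for Nlrc5. Th1 WT had the lowest mean for 6 genes, Th1 KO for 2 (Psmb8 and Psmb9) and Treg WT for 2 (H2-D1 and Nlrc5). The highest group mean exceeded the lowest by between 1.48 times for H2-D1 and 2.87 times for Tapbp. In each gene's order of group means the libraries of neighbouring groups overlapped, in 80 of 80 cases, as the plot of CPM by library shows. Neighbours in such an order have the closest means, so this overlap is likely by construction. Groups further apart could be separate, as Treg KO and Treg WT were for Tap1. Single libraries carried the extremes. Treg KO 5 was the highest of all 44 for 6 genes, and Treg WT 5 the lowest for 6.

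**Figure D1:**
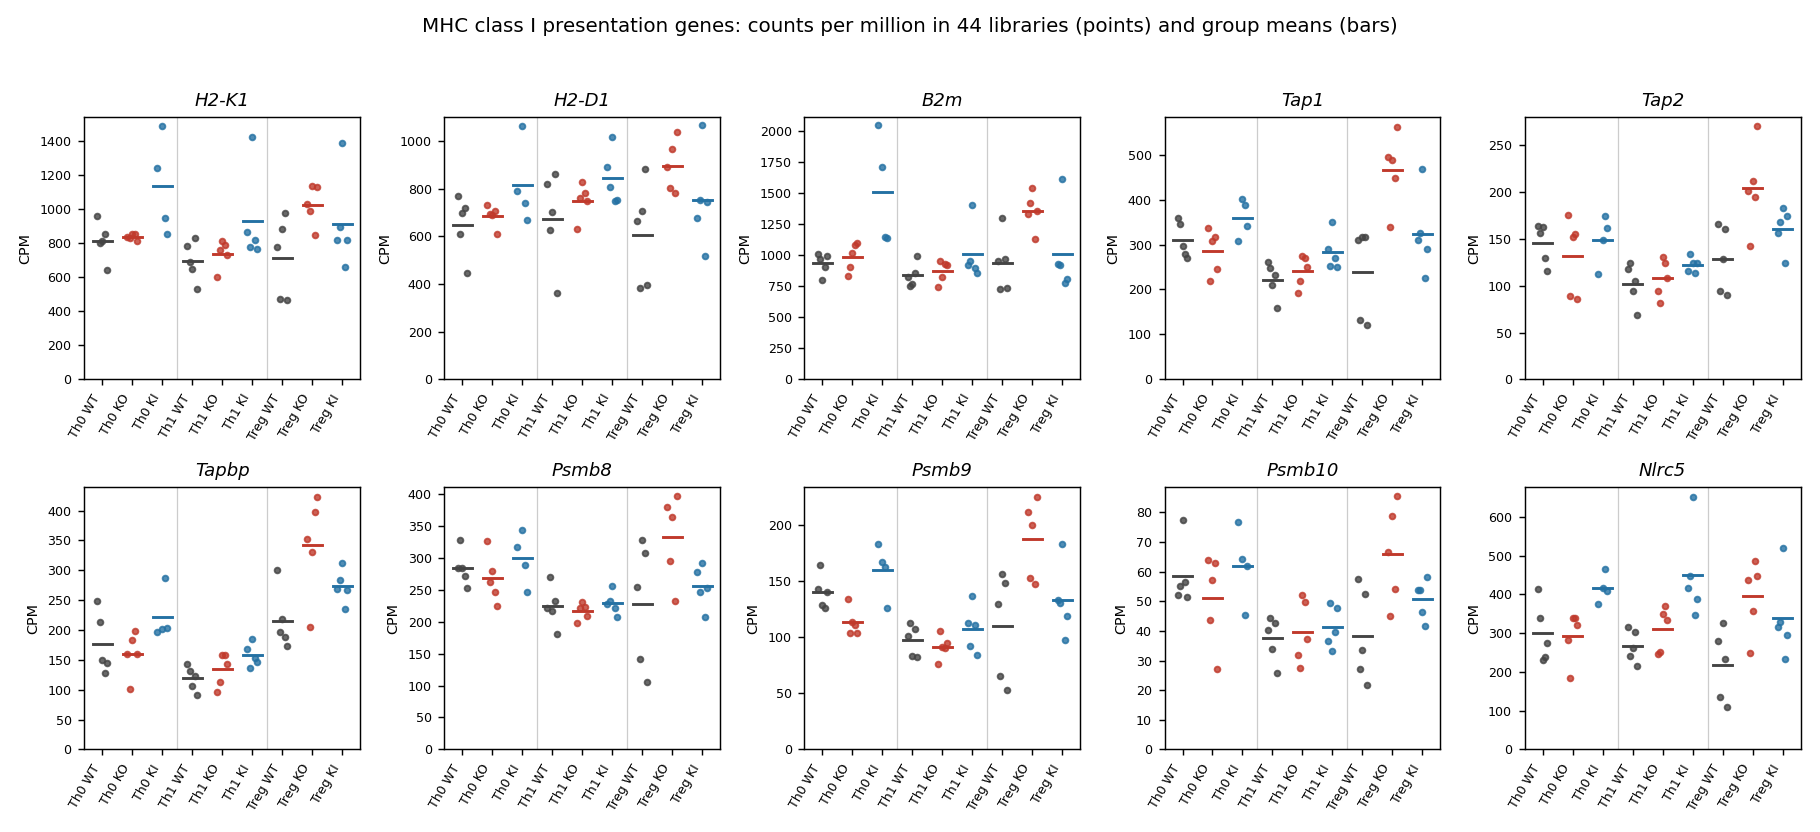
CPM (vertical axis, starting at 0, own scale per gene) of each of the 10 genes in the 44 libraries, by culture and genotype; points are libraries and bars are group means (WT grey, KO red, KI blue). Treg KO has the highest mean for 7 genes, and 2 Treg WT libraries lie well below the other 3 for Tap1, Psmb8, Psmb9 and H2-D1.

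The 10 genes varied together from library to library. Across the 44 libraries, the correlation of log2 CPM between 2 of the genes had a median Pearson r of 0.668 over the 45 pairs (0.340 to 0.918), and a median of 0.616 (-0.011 to 0.919) once group means were removed; libraries share depth scaling and batch, so this is a description only. The mean standardised log2 CPM of the 10 genes was lowest in Treg WT 5 (-2.22), Treg WT 2 (-1.83) and Th1 WT 5 (-1.64) and highest in Treg KO 5 (1.75), Treg KO 3 (1.42) and Treg KO 1 (1.33). The 10254 genes whose log2 CPM averaged 2 or more, the 10 members included, were ranked by correlation with this mean over the 44 libraries. Outside the set, the most similar was the class I gene H2-Q4 (r = 0.920), which has near-identical neighbours and is uncertain. It was followed by the ADP-ribosyltransferase gene Parp10 (0.892) and the mevalonate pathway kinase gene Pmvk (0.866). Next came H2-T10 (0.804), the ubiquitin-like ISG15 conjugating enzyme gene Ube2l6 (0.801), Unc93b1 (0.799), H13 (0.792), Ifi27l2a (0.792), Zdhhc18 (0.792) and H2-T22 (0.786).

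**Figure D2:**
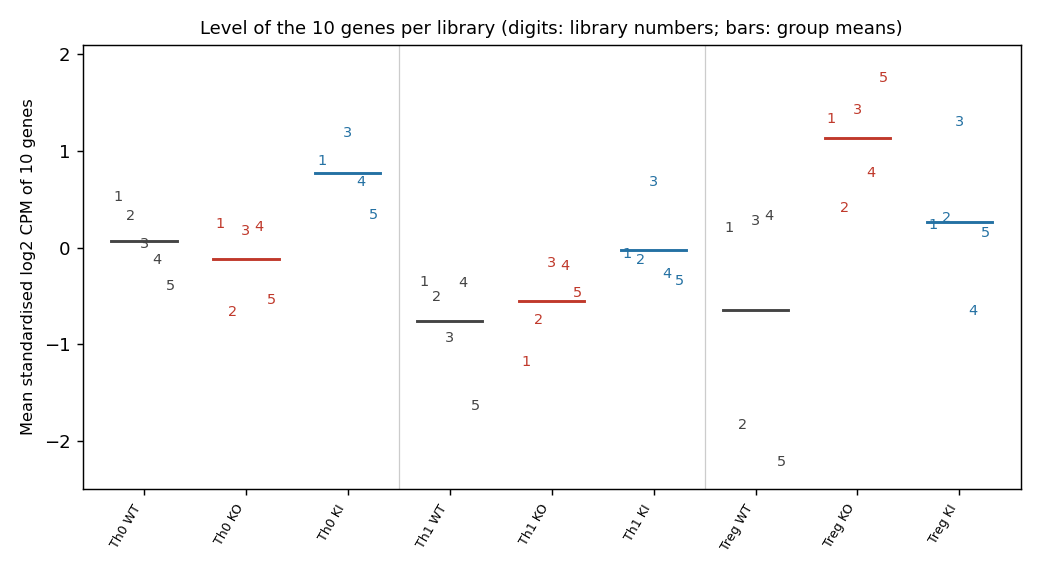
Mean standardised log2 CPM of the 10 genes (vertical axis, no unit, 0 is the mean of all 44 libraries) by group; digits are library numbers and bars group means. Treg WT splits into libraries 2 and 5, below -1.8, and libraries 1, 3 and 4, at 0.20 to 0.33, while the 5 Treg KO libraries lie between 0.41 and 1.75.

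Tapbp was the gene of the set that differed between Treg and Th1 culture in every genotype. In Th1 WT libraries 1 to 5 it was read at 143.4, 131.3, 105.6, 123.5 and 92 CPM, and in Treg WT at 301, 197, 218, 188 and 173 CPM. Every Treg WT library was above every Th1 WT library. By edgeR's quasi-likelihood test, fitted over all genes and libraries with Benjamini-Hochberg adjustment, Tapbp rose by 0.85 ± 0.19 on the log2 scale (SE; 1.81-fold, adjusted p = 6.94e-04). In KI it rose by 0.79 ± 0.19 (adjusted p = 0.00129), from 158 ± 19.1 to 273 ± 27.9 CPM (SD, n = 5), again with no overlap. In KO it rose by 1.35 ± 0.19 (2.55-fold, adjusted p = 1.38e-06), from between 96.4 and 159 CPM in the 5 Th1 libraries to 352, 205, 331, 398 and 423 CPM in Treg libraries 1 to 5. Same-numbered Treg and Th1 libraries of a genotype gave the same direction in 15 of 15 cases. Tapbp passed in all 3 genotypes under each of the 9, 9 and 8 alternative fits for WT, KO and KI, and with any single library left out.

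In KO, 6 more genes of the set were called between Treg and Th1 culture. Between Treg and Th1 in WT, 1 of 10 genes was called (Tapbp; median log2 fold change 0.08), where 30.8% of all genes tested were. In KI it was again 1 of 10 (median 0.18), against 32.8% of all genes. In KO 7 of 10 rose and none fell (median 0.68, against -0.00 over all genes), where 30% of all genes were called in either direction. The 3 comparisons have no sample in common, but whether the Treg against Th1 differences differ by genotype was not tested. Markers of other cells also differed in KO: of 12 myeloid and dendritic cell markers tested 6 were higher and 1 lower in Treg (median 2.33), with a summed level of 11.6 to 31.5 CPM in Treg KO and 5.02 to 14.1 CPM in Th1 KO. In WT 4 of these were higher and 1 lower, and in KI 5 and 0. Of 10 B cell markers 1 was higher in KO (median -0.56), and their sum ran from 307 to 671 CPM in Treg KO and from 56.9 to 494 CPM in Th1 KO. The part of these cells in the Treg against Th1 differences was not tested.

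Among the loading genes in KO, Tap1 was read at 192, 219.6, 275, 270.1 and 250.0 CPM in Th1 libraries 1 to 5 and at 494, 339.6, 489, 449 and 562 CPM in Treg. The lowest Treg library was above the highest Th1 library, and Tap1 rose by 0.95 ± 0.21 on the log2 scale (adjusted p = 5.49e-04). Its partner Tap2 rose by 0.92 ± 0.19 (adjusted p = 3.30e-04), from 107.8 ± 20.2 to 204 ± 45.7 CPM (SD, n = 5), without overlap. B2m, the light chain, rose by 0.63 ± 0.17 (adjusted p = 0.00474), from 877 ± 88.9 to 1358 ± 149 CPM.

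All 3 immunoproteasome genes rose in the same comparison. Psmb9 was read at 75.8, 105.4, 91.6, 90.1 and 94.8 CPM in Th1 KO libraries 1 to 5 and at 211, 153, 200.1, 147 and 225 CPM in Treg KO. These groups did not overlap, and Psmb9 rose by 1.03 ± 0.20 (adjusted p = 1.24e-04). Psmb8 rose by 0.62 ± 0.18 (adjusted p = 0.00872) and Psmb10, whose libraries overlapped, by 0.73 ± 0.23 (adjusted p = 0.0147). The call of Psmb10 ended without Th1 KO 1, Th1 KO 2, Treg KO 3 or Treg KO 5, with adjusted p up to 0.0676 and a log2 fold change of 0.59 to 0.85 over all left-out libraries. The heavy chain H2-K1 had 0.48 ± 0.19 (adjusted p = 0.0559), with no overlap between Th1 KO (600.3 to 813 CPM) and Treg KO (848 to 1133 CPM). H2-D1 had 0.26 ± 0.20 and Nlrc5 0.35 ± 0.23, and neither passed.

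**Figure D3:**
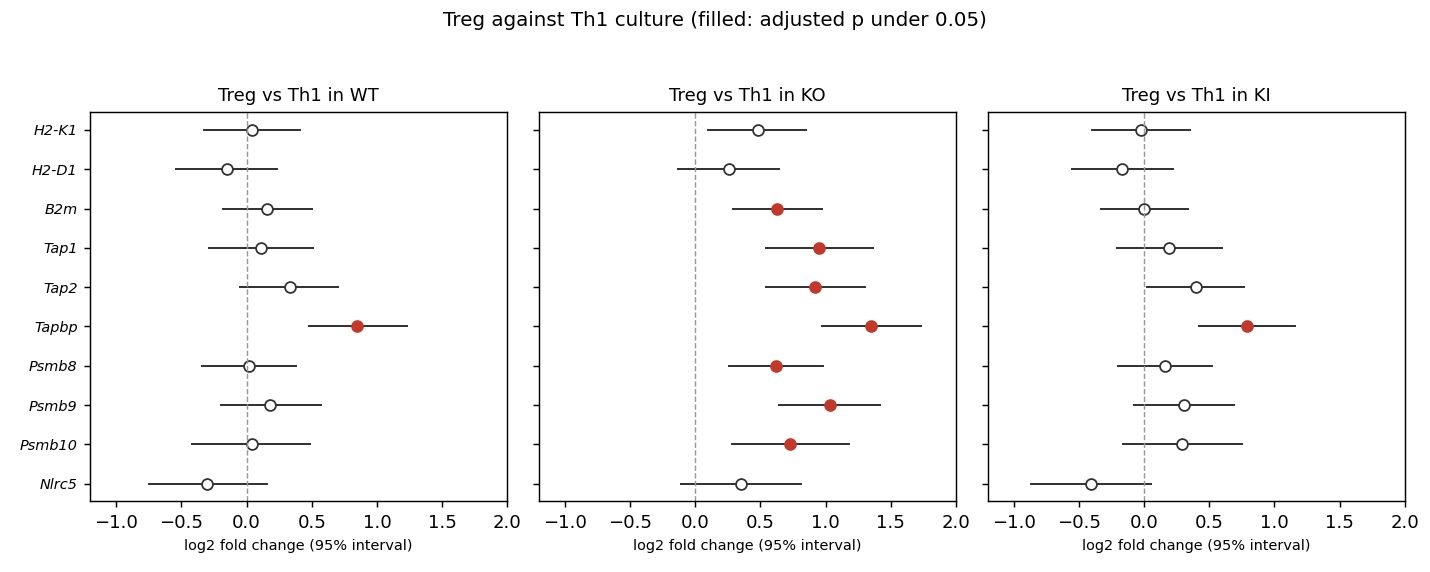
Log2 fold change of Treg against Th1 culture (horizontal axis) for the 10 genes in WT, KO and KI; points are edgeR estimates, lines 95% intervals and filled points adjusted p under 0.05. Tapbp is filled in all 3 panels, at 0.85, 1.35 and 0.79, and the other 6 filled points are all in KO.

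Against Th0, the same Treg KO libraries were higher for 5 of 10 genes and lower for none (median log2 fold change 0.45, against 0.04 over all genes), where 33% of all genes were called. Tapbp rose by 1.09 ± 0.19 (adjusted p = 2.69e-05), Psmb9 by 0.73 ± 0.20 (0.00394), Tap1 by 0.71 ± 0.21 (0.00704), Tap2 by 0.63 ± 0.19 (0.00963) and B2m by 0.46 ± 0.17 (0.0359). This comparison shares the Treg KO libraries with the one against Th1. Same-numbered Th0 and Treg libraries of KO deviated together. Fitted with that number as a block, H2-K1 (0.29 ± 0.11, adjusted p = 0.0455) and H2-D1 (0.38 ± 0.11, adjusted p = 0.00913) rose too, for 7 of 10. The block fit called 8835 of the 21873 genes here, more than the 7214 without a block. The call of B2m was the least stable: it ended on leaving out any of Th0 KO 1, 2 and 3 or Treg KO 1, 2, 3 and 5 (log2 fold change 0.39 to 0.51, adjusted p up to 0.113). It also ended with DESeq2 size factors, with no filter on low counts and without WT 4, KO 2 and KI 3 (adjusted p up to 0.0607). The call of Tap2 ended without Treg KO 5 (adjusted p = 0.0554).

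In WT, Treg and Th0 differed for 1 gene of 10, where 33.1% of all genes were called (median -0.25, against 0.02 over all genes). Psmb10 fell by 0.61 ± 0.23 on the log2 scale (adjusted p = 0.0392), from 52, 55.3, 77.4, 56.4 and 51.5 CPM in Th0 WT libraries 1 to 5 to 57.5, 27, 33.5, 52.4 and 21.6 CPM in Treg WT. The groups overlapped: Treg WT 1 and 4 were at the Th0 level and libraries 2, 3 and 5 below it. The call ended without Th0 WT 3, Treg WT 2, Treg WT 3 or Treg WT 5 (log2 fold change -0.80 to -0.47 over all left-out libraries, adjusted p up to 0.131). Without the libraries numbered WT 2 and WT 5 it was -0.36 (adjusted p = 0.4), and Tap1, Psmb8 and Psmb9, which stood at -0.37, -0.32 and -0.34, turned to 0.02, 0.10 and 0.14. In KI the only gene called was B2m, which fell by 0.58 ± 0.18 (adjusted p = 0.0115), where 33.6% of all genes were called. It ran at 2050, 1712, 1147 and 1137 CPM in Th0 KI libraries 1, 3, 4 and 5 and at 933, 921, 1613, 773 and 813 CPM in Treg KI libraries 1 to 5. Library 3 was high in both cultures, and without Th0 KI 1 the call ended (-0.40, adjusted p = 0.123).

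Standard proteasome genes fell in Treg against Th0 culture. Psmb5, Psmb6 and Psmb7 encode the catalytic subunits that Psmb8, Psmb9 and Psmb10 replace, and all 3 fell in Treg against Th0 in each genotype. Psmb5 fell by 0.68 on the log2 scale in WT, by 0.49 in KO and by 0.60 in KI. Psmb6 fell by 0.66, by 0.53 and by 0.72, and Psmb7 fell by 0.54, by 0.60 and by 1.0. Of all 14 standard 20S subunit genes, 13 fell in WT, 11 in KO and 14 in KI, and none rose (medians -0.56, -0.47 and -0.77), where 33.1%, 33% and 33.6% of all genes were called in either direction. Against Th1, 10 of the 14 fell in WT, 1 in KO and 8 in KI, and Psmb5, Psmb6 and Psmb7 did not pass in KO (-0.41, -0.39 and -0.32, adjusted p 0.109, 0.073 and 0.105). In WT the count against Th1 was 0 without WT 2 and WT 5, and in KO it was 3 without them and 6 with WT 4, KO 2 and KI 3 left out. Without WT 2 and WT 5, calls over all genes against Th1 in WT fell from 6737 to 2596. In KO such calls rose from 6559 to 7395, and to 7631 with WT 4, KO 2 and KI 3 left out. In KO the call of Psmb5 (adjusted p = 0.0487) ended without Th0 KO 1, 3 or 4 or Treg KO 1, 3 or 4 (log2 fold change -0.62 to -0.40, adjusted p up to 0.133), and in KI without Th0 KI 1 or Treg KI 4 (adjusted p up to 0.0642). When WT 2 and WT 5 were left out of every culture, 0 of the 14 passed in WT and 12 and 14 in KO and KI, and Psmb5, Psmb6 and Psmb7 had -0.38, -0.33 and -0.27 in WT (adjusted p 0.234, 0.231 and 0.326). Calls over all genes for Treg against Th0 in WT fell there from 7247 to 3238, and rose in KO from 7214 to 8052 and in KI from 7358 to 8134. Per kilobase and within a library, the ratio of Psmb9 to Psmb6 went from 0.56 in Th0 KO to 1.32 in Treg KO (geometric means; log2 -1.01 to -0.53 and -0.05 to 0.62 by library), with no overlap. In WT it was 0.63 in Th0 and 0.76 in Treg, and in KI 0.72 and 0.96. The ratio of Psmb8 to Psmb5 was 1.51 in Th0 KO and 2.57 in Treg KO, 1.48 and 1.87 in WT and 1.67 and 2.17 in KI. The ratio of Psmb10 to Psmb7 was 0.19 and 0.38 in KO, 0.22 and 0.20 in WT and 0.20 and 0.32 in KI. These ratios are given without a test.

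None of the 10 genes was called higher in Th1 than in Th0 culture. In WT 0 of 10 were called by edgeR's quasi-likelihood test, where 3.04% of all genes were (5 of the 10 at an unadjusted p under 0.05, 0 by DESeq2). Of the 10 log2 fold changes, 9 were below 0 (median -0.41, against -0.01 over all genes). Each share of all genes called in this report is of edgeR calls at an adjusted p under 0.05. The share at an unadjusted p under 0.05 was not computed, so counts at that threshold are a description only. Psmb10 was read at 40.3, 44.5, 34, 42.8 and 25.7 CPM in Th1 WT libraries 1 to 5, all below every Th0 WT library. Tap1 and Psmb9 were likewise without overlap, at 158 to 260.3 against 269.5 to 359 CPM and 82.1 to 112.9 against 126.3 to 164 CPM. Same-numbered Th0 and Th1 libraries deviated together in each genotype. Fitted with that number as a block, 3 genes fell in WT: Psmb10 by 0.67 ± 0.21 (adjusted p = 0.0467), Tapbp by 0.54 ± 0.13 (0.00931) and Tap2 by 0.53 ± 0.16 (0.0387). The block fit called 1563 of the 21873 genes, against 665 without a block. Of the 10 genes, 8 were lower in Th1 than in Th0 in all 5 same-numbered WT pairs, the exceptions being H2-D1 and Nlrc5. In KO 2 of the 10 were lower in every pair, and in KI 7 were, over 4 pairs. The share of all genes lower in every pair was not computed, so these counts are a description only.

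In KO the Th1 and Th0 cultures gave 0 of 10 calls (0 at an unadjusted p under 0.05, 0 by DESeq2; 9.51% of all genes), with log2 fold changes from -0.36 to 0.13. In KI B2m fell by 0.58 ± 0.18 (adjusted p = 0.0461), where 5.92% of all genes were called, and with the number as a block Tapbp fell as well (by 0.47 ± 0.14, adjusted p = 0.0282). The block fit called 2391 of the 21873 genes, against 1295 without a block. B2m in Th1 KI libraries 1 to 5 was 925, 956, 1408, 898 and 857 CPM, so that library 3 overlapped the Th0 KI range of 1137 to 2050 CPM. The B2m call ended without Th0 KI 1 or 3, or without Th1 KI 1, 2, 4 or 5 (log2 fold change -0.72 to -0.39, adjusted p up to 0.364). Ifng, the cytokine that induces this pathway, was at 1072 to 2985 CPM in Th1 WT and 38.9 to 1660 CPM in Th0 WT, and Treg cultures, with anti-IFN-g, had 0.622 to 846 CPM in WT. The place of Ifng in these differences was not tested.

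Knockout against wild type gave a call in Treg culture only, for Tap1. In Treg WT libraries 1 to 5 Tap1 was read at 309.9, 132.9, 316, 317 and 120.3 CPM, and in Treg KO at 494, 339.6, 489, 449 and 562 CPM. All 5 KO libraries were above all 5 WT libraries, and WT 2 and WT 5 stood apart from the other 3. Tap1 rose by 0.96 ± 0.21 on the log2 scale (1.95-fold, 95% interval 0.56 to 1.37, adjusted p = 0.0296), where 0.169% of all genes were called. All 10 genes had a positive log2 fold change, between 0.52 and 0.96, with a median of 0.67 against -0.01 over all genes. All 10 had an unadjusted p under 0.05, but the share of all genes at that threshold was not computed, and the 10 genes vary together. The other 9 did not pass over all genes. Nlrc5 had 0.86 ± 0.24 (adjusted p = 0.129), Psmb10 0.78 ± 0.23 (0.185), Psmb9 0.76 ± 0.20 (0.0991), Tap2 0.67 ± 0.19 and Tapbp 0.67 ± 0.19 (both 0.162). H2-D1, Psmb8, B2m and H2-K1 had 0.56, 0.55, 0.53 and 0.52 (adjusted p 0.236 to 0.298).

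Leaving out 2 WT libraries made this difference smaller. Treg WT 2 and WT 5 were the 2 lowest Treg WT libraries for 9 of the 10 genes, Tapbp being the exception. Psmb8 was at 254, 141.1, 328, 308 and 105.4 CPM in Treg WT libraries 1 to 5 and at 232 to 396 CPM in Treg KO. H2-D1 was at 666, 384, 705, 884 and 396 CPM in Treg WT and at 781 to 1038 CPM in Treg KO. Without the libraries numbered WT 2 and WT 5 in any culture, Tap1 had 0.56 ± 0.17 (adjusted p = 0.464), the 10 genes had a median of 0.39 and 0 were called. That fit called 0 of all genes tested. All 10 log2 fold changes stayed positive (0.16 to 0.56), and leaving out the lowest libraries of a group makes such a difference smaller by construction. These 2 libraries had Foxp3 at 519 and 596 CPM, Irf1 at 91.4 and 82.1 CPM and Cd8a at 4.16 and 4.9 CPM, where the other 3 Treg WT libraries had 47.7 to 534, 175 to 296 and 17.5 to 443 CPM. Leaving out any of Treg WT 2, Treg WT 5 and Treg KO 1, 3, 4 and 5 also ended the call of Tap1 (log2 fold change 0.79 to 1.07 over all left-out libraries, adjusted p 0.00857 to 0.248).

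Libraries with CD8 T and NK cell transcripts moved the count the other way. The summed level of the 8 markers ran from 19.4 to 882 CPM in Treg WT, from 57 to 269.6 CPM in Treg KO and from 34.1 to 567 CPM in Treg KI, highest in WT 4, KO 2 and KI 3. Ncr1 and Klrb1c, which mark NK cells, were at 0 in 10 and 3 of the 44 libraries. With WT 4, KO 2 and KI 3 left out of every culture, 6 genes were higher in Treg KO than in Treg WT: Tap1 (1.15, adjusted p = 0.00962), Psmb10 (1.0, 0.0485), Nlrc5 (0.99, 0.0289), Psmb9 (0.93, 0.0318), Tap2 (0.85, 0.0365) and Tapbp (0.73, 0.0397). That fit called 226 genes over all, against 37 with every library. Treg KO 2 was the lowest Treg KO library for 5 of the 10 genes: Tap1, Tap2, Tapbp, Psmb10 and Nlrc5. Treg WT 4 was the highest Treg WT library for H2-K1, H2-D1 and Tap1. For these genes, leaving such libraries out makes the difference larger by construction. DESeq2 on all libraries called Tap1, Psmb9 and Nlrc5, among 164 genes over all. With only the 10 Treg libraries of these genotypes fitted, edgeR called none and Tap1 had an adjusted p of 0.572; with no filter on low counts it was 0.0521. Myeloid and dendritic cell markers summed to 19.1 to 65.5 CPM in Treg WT and 11.6 to 31.5 CPM in Treg KO, with S100a8 and S100a9 at 0 in 25 of the 44 libraries. The part of other cells in the result was not tested.

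**Figure D4:**
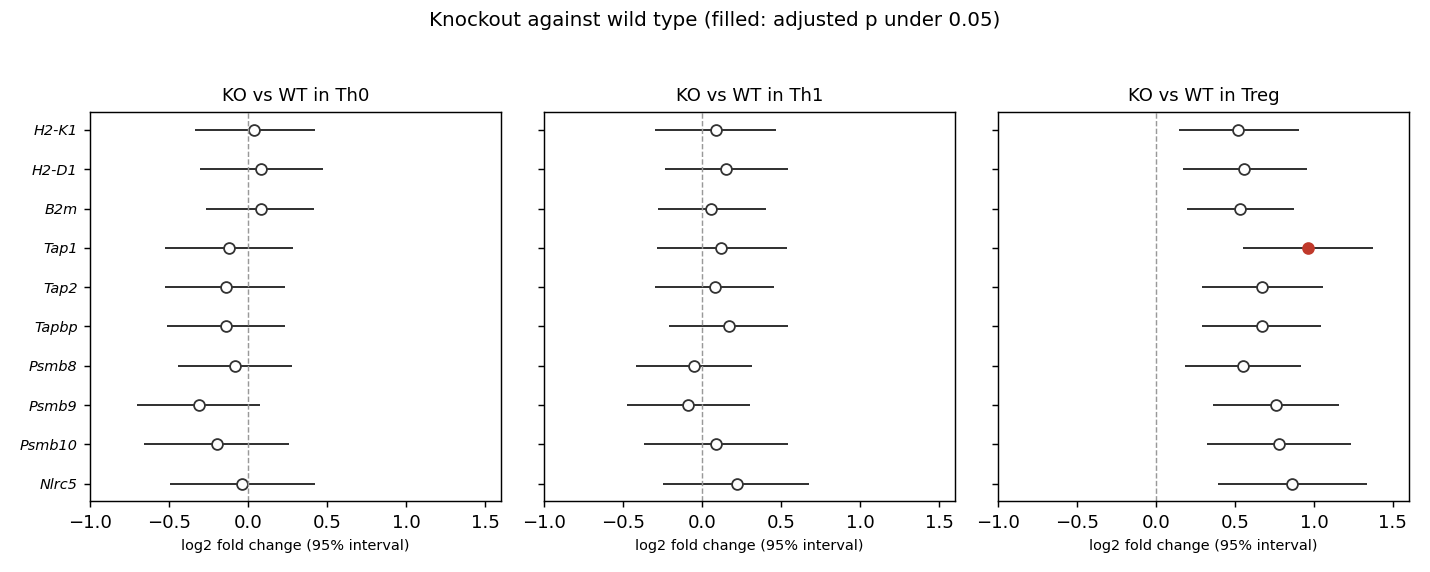
Log2 fold change of KO against WT (horizontal axis) for the 10 genes in Th0, Th1 and Treg culture; points are edgeR estimates, lines 95% intervals and filled points adjusted p under 0.05. In Treg all 10 points lie between 0.52 and 0.96 and Tap1 is the filled one, while Th0 runs from -0.31 to 0.08 and Th1 from -0.09 to 0.22.

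In the other cultures the knockout left the set within the spread of the libraries. In Th0 0 of 10 genes were called between KO and WT (0 at an unadjusted p under 0.05, 0 by DESeq2, 0% of all genes), with log2 fold changes of -0.31 to 0.08. In Th1 it was again 0 of 10 (0 and 0, 0% of all genes), with -0.09 to 0.22. The 95% interval for Tap1 was -0.52 to 0.28 in Th0 and -0.28 to 0.53 in Th1. Whether the knockout difference itself changed between cultures was tested as an interaction. Between Treg and Th0 all 10 interaction terms were positive (0.46 to 1.08, median 0.81). DESeq2 called 0 of the 10 and 19 genes over all. By edgeR's quasi-likelihood test 0 of the 10 and 0% of all genes passed. At an unadjusted p under 0.05 there were 7 of the 10, with no share of all genes computed. Tap1 had 1.08 ± 0.29 and Psmb9 1.07 ± 0.28, both with an adjusted p of 0.43. Between Th1 and Th0 the terms ran from -0.01 to 0.31 with 0 calls (0 and 0, 0% of all genes).

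The knock-in cells gave positive log2 fold changes against WT for all 10 genes in each culture, and 0 calls in each. In Th0 they ran from 0.03 to 0.69 (2 at an unadjusted p under 0.05, 1 by DESeq2, 0.512% of all genes called). B2m was highest, at 0.69 ± 0.18 (95% interval 0.33 to 1.04, adjusted p = 0.0591). It was read at 1011, 969, 802, 905 and 998 CPM in Th0 WT libraries 1 to 5, all below the 4 Th0 KI libraries given above. DESeq2 called it (adjusted p = 0.018), among 659 genes over all. H2-K1 followed at 0.48 ± 0.20, with 1243, 1489, 945 and 854 CPM in Th0 KI libraries 1, 3, 4 and 5 and 640.2 to 959 CPM in Th0 WT. In Th0 KI 3 the B cell markers summed to 2101 CPM against 287 CPM in Th0 KI 5, and the class II gene H2-Aa stood at 372 CPM. Th0 KI 1, which had the highest B2m, had 599 CPM of B cell markers, and their part in the class I levels was not tested.

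In Th1, KI against WT ran from 0.03 to 0.75 (3 at an unadjusted p under 0.05, 0 by DESeq2, 0.0274% of all genes called). Nlrc5 was highest, at 0.75 ± 0.23 (adjusted p = 0.132), with 416, 447, 650.1, 346 and 388 CPM in Th1 KI libraries 1 to 5 and 316, 240.0, 262, 302 and 216 CPM in Th1 WT, without overlap. In Treg the range was 0.11 to 0.64 (2 at an unadjusted p under 0.05, 0 by DESeq2, 0% of all genes called), again highest for Nlrc5. Treg KI 3 was the highest Treg KI library for 9 of the 10 genes, and it also had the highest Cd8a and B cell marker levels of that group. Against KO, the KI libraries had positive log2 fold changes for all 10 genes in Th0 (0.16 to 0.61) and in Th1 (0.06 to 0.54). In Treg all 10 were negative (-0.53 to -0.16). By edgeR 0 of the 10 were called in each culture, with 0%, 0% and 0.0229% of all genes in Th0, Th1 and Treg. At an unadjusted p under 0.05 there were 5, 1 and 4 of the 10. DESeq2 called 0 of the 10 in each, and 140, 42 and 59 genes over all. The terms for a knock-in difference that changes with culture gave 0 calls between Th1 and Th0 (0 at an unadjusted p under 0.05, 0 by DESeq2, 0% of all genes) and 0 between Treg and Th0 (1 and 0, 0% of all genes); the latter was B2m, at -0.58 ± 0.25.

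The balance of the 2 classical heavy chains differed between Th1 and Th0 libraries. In Th0 WT libraries 1 to 5, the CPM of H2-D1 divided by that of H2-K1 was 0.80, 0.76, 0.86, 0.84 and 0.70. In Th1 WT it was 1.05, 0.91, 1.09, 1.04 and 0.69. In KO it ran from 0.75 to 0.88 in Th0 and from 0.99 to 1.05 in Th1, without overlap. In KI it was 0.63, 0.71, 0.78 and 0.79 in Th0 libraries 1, 3, 4 and 5, and 1.03, 1.04, 0.71, 0.92 and 0.99 in Th1 libraries 1 to 5. The ratio was higher in Th1 in 13 of 14 same-numbered pairs of libraries and higher in Treg than in Th0 in 11 of 14. H2-K1 itself was lower in Th1 in all 14 pairs, while H2-D1 was higher in 11. The ratio was not higher in number 5 of WT, whose Th1 library had the lowest H2-D1 of all 44 (363 CPM), and in number 3 of KI it rounded to 0.71 in both. The ratio was noticed in these data and is given without a test, and the division of reads between these genes is uncertain.

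**Figure D5:**
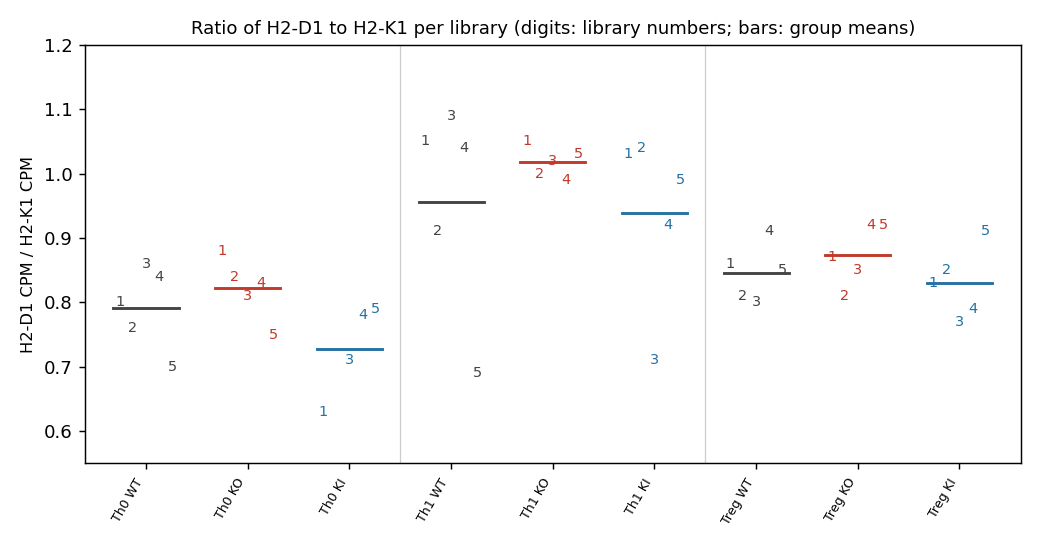
CPM of H2-D1 divided by CPM of H2-K1 (vertical axis, linear, not starting at 0) by group; digits are library numbers and bars group means. In KO all Th1 libraries (0.99 to 1.05) are above all Th0 libraries (0.75 to 0.88), and Th1 WT 5 (0.69) and Th1 KI 3 (0.71) lie below the other Th1 libraries of their genotypes.

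Of 24 other listed genes of the class I pathway (nonclassical class I heavy chains, chaperones, proteasome activators and peptidases), 5 rose and 4 fell in Treg against Th1 in KO (median 0.09, against -0.00 over all genes), and 3 rose and 6 fell in WT (median -0.30). These counts, 9 of 24 in each, stand beside the 30% and 30.8% of all genes called in these comparisons. The lipid-presenting Cd1d1 rose by 2.43 ± 0.34 in KO and 2.07 ± 0.34 in WT, and Mr1, which presents vitamin B metabolites, by 0.91 ± 0.27 and 1.40 ± 0.27. The endoplasmic reticulum chaperone gene Hspa5 fell, by 0.90 ± 0.16 and 0.92 ± 0.16. The tapasin-related Tapbpl fell by 0.78 ± 0.19 in WT, opposite to Tapbp. Between KO and WT in Treg culture 1 of the 24 passed, H2-Q4, which rose by 0.74 ± 0.17 (adjusted p = 0.0462; median of the list 0.38), and DESeq2 called 3. The call ended without Treg KO 1, 3, 4 or 5 or Treg WT 2 or 5 (log2 fold change 0.63 to 0.80 over all left-out libraries, adjusted p 0.0148 to 0.324). H2-Q4 has near-identical neighbours, so its count is uncertain. When WT 2 and WT 5 were left out, the Treg against Th1 counts in WT were 1 up and 1 down, Mr1 had 0.78 (adjusted p = 0.103) and Tapbpl -0.32 (adjusted p = 0.221). Calls over all genes fell as well, from 6737 to 2596.

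Of 15 listed factors that act on class I promoters, 6 rose and 2 fell in Treg against Th1 in KO, where 30% of all genes were called, and 4 rose and 1 fell in WT, near the 30.8% of all genes. Irf1 rose by 1.44 ± 0.27 in KO (adjusted p = 7.42e-05), Irf2 by 0.75 ± 0.15 and Creb1 by 0.66 ± 0.15. Ciita, the class II relative of Nlrc5, rose by 2.25 ± 0.83 (adjusted p = 0.0369), a call that ended without Th1 KO 1, 3 or 4 or Treg KO 5 (adjusted p up to 0.179). In WT Irf2 rose by 0.60 ± 0.15, Creb1 by 0.61 ± 0.15, Rfx5 by 0.60 ± 0.22 and Nfya by 0.51 ± 0.11. Without WT 2 and WT 5, 2 of the 15 rose in WT, and Irf2, Nfya and Rfx5 had 0.42, 0.44 and 0.05 (adjusted p 0.172, 0.0504 and 0.946). Calls over all genes also dropped in that fit, from 6737 to 2596. The Rfx5 call also ended with 7 of the 10 libraries compared left out singly (adjusted p up to 0.19). Of 11 interferon-gamma signalling genes 6 rose and 3 fell in KO, and 4 rose and 3 fell in WT. The receptor gene Ifngr2 rose by 1.89 ± 0.19 in KO and 2.14 ± 0.19 in WT, the feedback inhibitor gene Socs3 fell by 2.55 ± 0.47 and 1.84 ± 0.46, and Ifng itself fell by 5.56 ± 1.61 in KO (log2 fold change -8.40 without Treg KO 2).

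Of 9 type I interferon signalling genes 4 rose and 0 fell in Treg against Th1 in KO, among them Ifnar2 (1.02 ± 0.11), Irf9 (0.92 ± 0.20), Stat2 (0.90 ± 0.30) and Irf7 (2.05 ± 0.65), and 3 rose and 1 fell in WT. In KI 2 rose and 2 fell, the latter being the deconjugating protease gene Usp18 (-2.20 ± 0.66) and Isg15 (-1.98 ± 0.77). The shares of all genes called were 30%, 30.8% and 32.8% in KO, WT and KI. The call of Isg15 ended without Th1 KI 1 or 4 or Treg KI 2, 4 or 5 (adjusted p up to 0.102). Irf7 did not pass without Treg KO 5 (adjusted p = 0.0504), nor Stat2 without Th1 KO 1, Treg KO 4 or Treg KO 5 (adjusted p up to 0.067). In WT without libraries 2 and 5, 1 rose and 1 fell, where 2596 genes were called over all, against 6737 with them. Of 6 class II genes, 1 rose in each, namely H2-DMa (2.39 ± 0.40 in KO and 1.84 ± 0.39 in WT). Between KO and WT in Treg culture none of the factor, interferon-gamma, type I interferon, class II or standard 20S proteasome genes was called by edgeR, with list medians of 0.08, 0.11, 0.44, 0.08 and 0.05. Irf1 was at 371, 229, 284, 259 and 321 CPM in Treg KO libraries 1 to 5 and at 175, 91.4, 296, 181 and 82.1 CPM in Treg WT, with an adjusted p of 0.229. The Treg WT 2 and WT 5 libraries were the lowest of their group for Irf1.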

How the data were processed

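Whole-number counts per gene were deposited by the authors, with 1 column per library and sequencing lane; per the file headers, the alignments came from STAR, after trimming, in sorted form. The counting tool, its annotation and strand setting were not given in the sources used here, and the submitters' processing notes name the build GRCh38 although the gene identifiers are those of mouse. A deposited table of normalised values was not used. The 88 columns were summed by library, whose lanes had a log-scale correlation of at least 0.9788. The 1492 rows without a gene name carry gene identifiers and stayed in the fit.

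Counts were tested in R 4.3.3 with edgeR 4.0.16: TMM factors, default filter by group (21873 genes), 1 model of 9 group means, quasi-likelihood tests of 22 contrasts, Benjamini-Hochberg adjustment over all genes, called at 0.05. CPM used the TMM factors, and SE is the log2 fold change divided by the root of F. Median depth was 103368425.5 counts, and a floor of 3 counts covers counting error only. None of the 86 pairs of libraries within a group looked like copies. The fit was tested on simulated data with 200 changed genes. Alternatives were DESeq2 1.42.0, its size factors, no filter, only the groups compared, each library left out and a block by library number, with 4 more chosen after seeing the data: 3 sets of libraries left out, and sex as a term.

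The members and lists were chosen with earlier results of these data known. By the naming rule, the 10 members, Ifng, Irf1, Foxp3, Tbx21 and Cd8a were named always, then up to 4 called genes per pathway list and comparison by size of change (mean log2 CPM at least 2), and the 10 genes of most similar pattern; 1 item of this rule is not reported here. Psmb5, Psmb6 and Psmb7 were added as counterparts of members. In 6 pathway lists and 5 marker lists, counts and medians stand in for list tests.

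The labels give library numbers without their meaning. Same-numbered libraries of a genotype deviated together for Th0 and Th1 (correlation of deviations 0.245 to 0.422 in WT, 0.185 to 0.494 in KO and 0.147 to 0.552 in KI) and for Th0 and Treg in KO (0.107 to 0.286) and, just over 0.1 for number 1, in KI (0.1 to 0.398), so these were read as pairs. In that KI comparison 3 of 4 pairs correlated best with their own number, and number 1 did not. Th1 and Treg had a pair under 0.1 in WT, KO and KI (lowest 0.0944, 0.0834 and 0.0816). They were not read as pairs, although in KO and KI every pair correlated best with its own number.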

Additional observations from a re-analysis of the deposited data

Results flagged for a closer look

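Within each of 90 combinations of gene and group, the highest and lowest library were compared with the next by Dixon's ratio, which chance exceeds in about 1 in 20 groups. In 5 a library was flagged, near the number that this rate gives for 90 combinations. H2-K1 was highest in Th1 KI 3, at 1424 CPM, as was B2m, at 1408 CPM. B2m was also highest in Treg KI 3, at 1613 CPM. Tapbp was highest in Th0 KI 4, at 287 CPM, and Psmb10 in Th0 WT 3, at 77.4 CPM.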

How the results depend on the processing

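Tapbp was called between Treg and Th1 under every alternative run, in each genotype. The number of the 10 genes called changed as follows where the fit changed; the cause was not tested. With a replicate block, Th1 against Th0 gave 3 in WT (0 without it) and 2 in KI (1), and Treg against Th0 in KO 7 (5); among the comparisons read as pairs it changed no other call of the 10 genes. Where the numbers were not read as pairs, the block gave 3 for Treg against Th0 in WT (1 without it; Tap1 -0.46, Psmb10 -0.69, Nlrc5 -0.54), 2 for Treg against Th1 in KI (Tap2 0.39, adjusted p = 0.0479), 8 in KO (H2-K1 0.48, 0.0017), and for KO against WT in Treg the same single call, Tap1 (1.04, 0.0465); the lowest correlations were 0.0919 for Th0 with Treg in WT and 0.0816 to 0.0944 for Th1 with Treg, and every library correlated best with its own number for Th1 with Treg in KO and KI, in 4 of 5 pairs in WT and, for Th0 with Treg in WT, in 3 of 5. With only the groups compared, Treg against Th0 gave 0 in WT and 0 in KI, Th1 against Th0 2 in KO (Psmb8 and Psmb9) and 0 in KI, Treg against Th1 in KI 2 and KO against WT in Treg 0. With no filter, Treg against Th0 in WT, Th1 against Th0 in KI and KO against WT in Treg gave 0 each. DESeq2 gave 1 for KI against WT in Th0 and 3 for KO against WT in Treg. For Treg against Th0 in KO, where the main fit gave 5, DESeq2 size factors and no filter gave 4 each. With only the groups compared that count was 7, and for Treg against Th1 in KO it was 8 (7 in the main fit). The following settings were chosen after seeing the data. Without WT 2 and WT 5, Treg against Th0 in WT gave 0, with Tap1, Psmb8 and Psmb9 reversed to 0.02, 0.10 and 0.14; Treg against Th1 in WT gave 2, Th1 against Th0 in KI 3 and KO against WT in Treg 0. Without WT 4, KO 2 and KI 3, Th1 against Th0 in WT gave 1 (Tapbp, -0.66) and KO against WT in Treg 6. With sex as a term, Th1 against Th0 in KI gave 0. For Treg in KO, leaving out WT 2 and WT 5 gave 7 against Th0 and 8 against Th1. Leaving out WT 4, KO 2 and KI 3 gave 4 against Th0 and 8 against Th1.

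Leaving out single libraries gave 0 to 3 for Treg against Th0 in WT, 3 to 5 in KO and 0 to 2 in KI, 6 to 7 for Treg against Th1 in KO and 1 to 2 in KI, 0 to 1 for Th1 against Th0 in KI, 0 to 1 for Th0 KI against Th0 WT, and 0 to 3 for KO against WT in Treg. Over all genes, KO against WT in Treg gave 37 calls, 164 by DESeq2, 0 with only the groups compared, 17 with the block, 0 without WT 2 and WT 5, 226 without WT 4, KO 2 and KI 3 and 67 without Treg WT 4 and Th1 KO 3. Treg against Th0 in WT gave 7247 calls, and 3238 without WT 2 and WT 5. Th1 against Th0 in WT gave 665, with 1563 under the block and 195 with only the groups compared. Depth limited none of the 10 genes, all of which had far more than 3 counts in every library.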
